A study of Populus tomentosa with 6 samples.

Results

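A small set of genes was clearly expressed in control leaves of Chinese white poplar (Populus tomentosa) and almost undetected in heated leaves. The 62 genes were selected on the read counts themselves. Each had at least 10 CPM (the count divided by the library's total count and multiplied by 1000000) in each of the 3 control libraries and a mean below 1 CPM over the 3 heat libraries. They were 62 of the 27209 genes in the table, and 0.546% of the 11365 genes that met the control limit alone or with the heat limit. These 11365 genes serve below as the reference set of expressed leaf genes. The control and heat levels of the 62 genes are what chose them, so these levels describe the genes and test nothing.

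RNA sequencing of total leaf RNA gave 3 control and 3 heat libraries, all of one species with no transgene or mutant named in the labels. The growth light was on for 16 h and off for 8 h a day, at 350 µmol per m2 and s, with 25 °C days and 20 °C nights. Plants of both groups were grown for 75 days, and control leaves came from plants at these temperatures. After 75 days of growth, the plants of the heat group were warmed from the start of a light period. They were brought to 37 °C in 0.5 h, kept there for 2 h, brought to 45 °C in 0.5 h and kept there for 5 h, after which leaves were taken. The sources used here do not give the hour at which control leaves were taken, nor whether each library of a group is from its own plant. The spread between libraries may therefore be technical, and a difference in time of day cannot be told apart from heat.

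Leaf cells meet heat by activating heat shock factors, transcription factors that switch on genes for chaperones, while the synthesis of many other transcripts slows and some existing mRNAs are degraded. The amount of an mRNA at any moment reflects both its synthesis and its decay, and genes with short-lived mRNAs can lose them within hours once synthesis stops. Read counts measure only the amount that is left, relative to all other transcripts in the library. In a whole leaf, fewer cells of one type and less of an mRNA per cell cannot be told apart.

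The identifiers are paired with names or functions neither in the table nor in the reference, since 0 of the 27209 identifiers matched the 60139 genes of the reference (assembly PTv2). No roles are therefore given. The 2 members with the highest mean control level are named by identifier, and the others by their rank in that level, from rank 1 (the highest) to rank 62. The way reads matching several genes were counted is not given in the sources used here, so counts of near-identical copies are uncertain. The libraries held between 6466647 and 8530622 gene counts, so that 1 CPM corresponds to between 6.47 and 8.53 reads.

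Together the 62 genes went from a visible share of the leaf transcriptome to almost none of it. Their summed level was 3552, 2605 and 3930 CPM in control libraries 1, 2 and 3, and 31.4, 37.8 and 28.0 CPM in heat libraries 1, 2 and 3. The means were 3363 ± 683 CPM in control (SD, n = 3) and 32.4 ± 5.00 CPM in heat (SD, n = 3), so that heated leaves held 0.963% of the control sum. In reads, this was 76470 counts over the control libraries against 731 over the heat libraries, from nearly equal totals of 22342934 and 22583770. Control library 2 had the lowest sum of the controls, and heat library 2 the highest of the heat libraries. The 10 most abundant members carried 58.1% of the control sum, and the first 2 carried 21.9%.

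**Figure D1:**
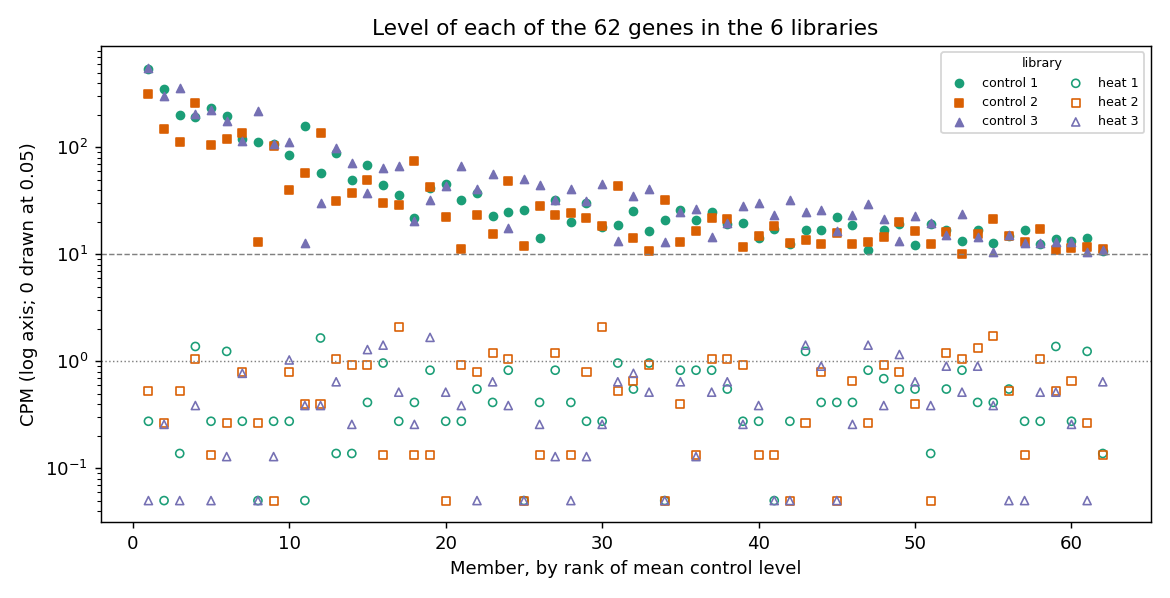
Level in CPM (log axis) of each of the 62 genes in the 3 control libraries (filled) and the 3 heat libraries (open), with genes ordered by mean control level; the dashed line marks 10 CPM and the dotted line 1 CPM. Control levels run from a mean of 472 CPM down to 10.9 CPM, whereas heat levels show little order along the ranks. At least 1 heat library is at or above 1 CPM in 25 genes.

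Control levels covered a wide range, whereas the rule kept all heat means below 1 CPM. Mean control levels ran from 10.9 to 472 CPM with a median of 24.9 CPM, below the median of 41.8 CPM of all 11365 expressed genes. Of the 62 members, 23 lay below 20 CPM, 15 reached at least 50 CPM and 9 at least 100 CPM. Mean heat levels had a median of 0.538 CPM. Across the 62 members their rank correlation with the control level was weak (Spearman rho = -0.12). That value is taken over genes that share the same libraries and are bounded by the rule. The 10 most abundant members had a median heat mean of 0.245 CPM, against 0.615 CPM in the other members. The share of the control level that remained in heat lay below 1% in 23 members, from 1% to 3% in 21 and at 3% or more in 18, with a highest value of 6.35% in rank 59.

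All 62 members passed the filter on low counts and all 62 were called lower in heat (quasi-likelihood test of edgeR, p adjusted by Benjamini-Hochberg over 17458 tested genes and below 0.05). Over all tested genes 28.7% were called lower. Because the members were chosen on this same contrast, nothing is read from that count. Their fitted log2 changes ran from -10.75 to -3.80 with a median of -5.65, beside medians of -0.04 over all tested genes and -0.13 over the 11365 expressed genes. The standard errors of the members' fitted changes lay between 0.30 and 1.53.

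The most abundant member was POPTR_0018s09610. It had 4006, 2023 and 4746 counts in control libraries 1, 2 and 3, and 2, 4 and 0 counts in heat libraries 1, 2 and 3. Every control library lay above every heat library, which the rule ensures for each member. Control library 2 was the lowest of the controls. The control level was 472 ± 138 CPM (SD, n = 3) and the fitted log2 change -10.58 with a standard error of 0.62. The ratio of the means was 1759-fold, with a 95% exact Poisson interval of 808 to 4792 that covers the counting error of the 6 heat reads only. Heat library 2 held 4 of those 6 reads, and without it the ratio was 3422-fold. Without heat library 3, which held none, it was 1172-fold.

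The second most abundant member, POPTR_0018s09590, carries an identifier 20 numbers before the first. Its counts were 2561, 969 and 2556 in the control libraries and 0, 2 and 2 in the heat libraries. The controls did not overlap with heat, which the rule again ensures, and control library 2 was again lowest. The control level was 266 ± 104 CPM (SD, n = 3), the fitted log2 change -10.30 with a standard error of 0.67, and the ratio of the means 1529-fold with a Poisson interval of 597 to 5611. Leaving out heat library 1 lowered this ratio to 1019-fold. The one gene listed between the pair had 0 counts in all 6 libraries.

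Of ranks 3 to 10, ranks 3, 5, 8 and 9 kept at most 5 reads over the 3 heat libraries, and the other 4 kept 12 to 21. Rank 3 had 1475, 722 and 3069 counts in the control libraries and 1, 4 and 0 in the heat libraries. Rank 5 had 1719, 674 and 1925 counts in control and 2, 1 and 0 in heat. Rank 8 had 821, 85 and 1866 counts in control and 0, 2 and 0 in heat. Ranks 3, 5 and 8 were lowest in control library 2, and in rank 8 the highest control library exceeded the lowest by 16.6-fold in CPM. For rank 3 the ratio of the means was 1008-fold (Poisson interval 432 to 3106), and it was 3252-fold without heat library 2 and 672-fold without heat library 3.

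Rank 4 and rank 7 were as abundant in control leaves but kept more reads in heat. Rank 4 had 1398, 1674 and 1753 counts in the control libraries and 10, 8 and 3 in the heat libraries. It lay just inside the limit on the heat mean, at 0.941 CPM, yet its ratio was 232-fold (Poisson interval 152 to 375) because its control level was 218 ± 36.0 CPM (SD, n = 3). Rank 7 had 886, 888 and 972 counts in control and 2, 6 and 6 in heat. In both genes control library 2 was the highest control in CPM, not the lowest. Rank 6 had 1431, 778 and 1490 counts in control and 9, 2 and 1 in heat, so that 1 heat library held most of its remainder.

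Rank 9 had the steadiest control level of the abundant members, with 785, 665 and 911 counts, or 107, 103 and 107 CPM. Its heat counts were 2, 0 and 1. Rank 10 had 626, 261 and 954 counts in control and 2, 6 and 8 in heat. Over the first 10 ranks the share left in heat lay between 0.0569% and 0.884% of the control level, against 0.756% to 6.35% over the 20 ranks with the lowest control levels. The rule fixes part of that difference, since a gene near 10 CPM enters with a heat mean just under 1 CPM.

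**Figure D2:**
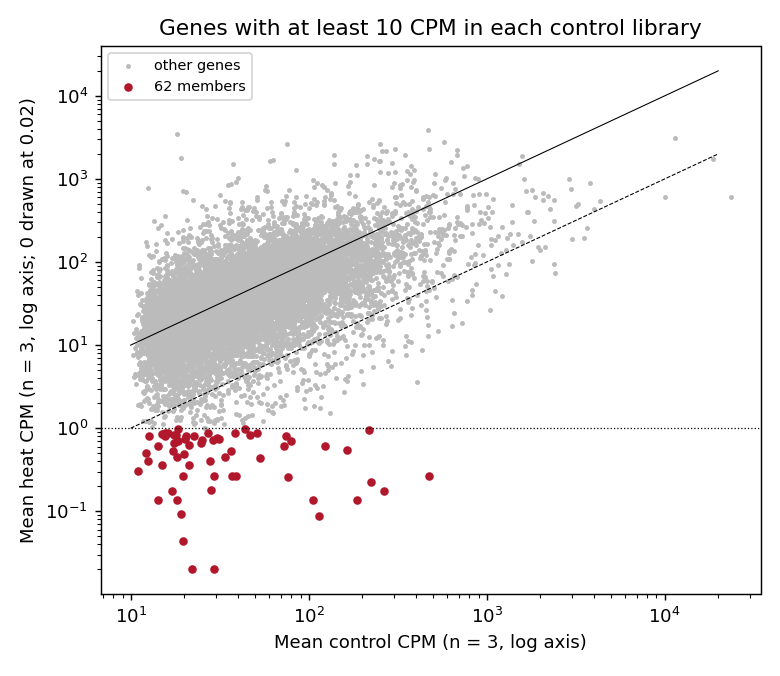
Mean heat CPM against mean control CPM (both log axes, n = 3 libraries each) for the 11365 genes with at least 10 CPM in each control library; the solid line marks equal levels, the dashed line a 10-fold fall and the dotted line 1 CPM. The 62 members (red) lie under the dotted line, and the most abundant of them, at 472 CPM in control, stands at 0.268 CPM in heat.

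The members were the low edge of a wider group of expressed genes with reduced levels. Of the 11365 expressed genes, 3880 were called lower, 3027 higher and 4458 did not pass the threshold (edgeR, adjusted p below 0.05). The heat mean was 10% of the control mean or less in 366 genes, and the 62 members made up 16.9% of these. A heat mean of at most 1% of the control mean was found in 24 expressed genes, and 23 of them were members. The remaining gene stood at 407 CPM in control and 3.59 CPM in heat. The rule fixes part of this overlap. An expressed gene with a control mean below 100 CPM and at most 1% left has a heat mean below 1 CPM, and so is a member. By control level, members were 1.20% of the expressed genes from 10 to 20 CPM (23 of 1921), 0.514% from 20 to 50 CPM (24 of 4672), 0.219% from 50 to 100 CPM (6 of 2735) and 0.442% from 100 CPM (9 of 2037). Genes at 10% of control or less were 2.03%, 2.40%, 2.41% and 7.31% of these 4 classes, a measure that asks for the same fold in each.

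The reads left in heat were few but present for most members. Over the 3 heat libraries together, 2 members had no read, 7 had 1 to 3 reads, 15 had 4 to 9 and 38 had 10 or more, up to 22. Heat libraries 1, 2 and 3 held 228, 286 and 217 reads of the members, and 6, 7 and 14 members had a count of 0 in them. Heat library 2 was the highest heat library in CPM for 28 members, library 1 for 20 and library 3 for 14. The 20 include ranks 25 and 34, which had no heat read and were assigned to library 1 only by column order. The highest single heat value was 16 reads in heat library 2, reached by ranks 17 and 30. Each heat library was below 1 CPM in 37 members, and 25 members had at least 1 heat library at or above it.

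**Figure D3:**
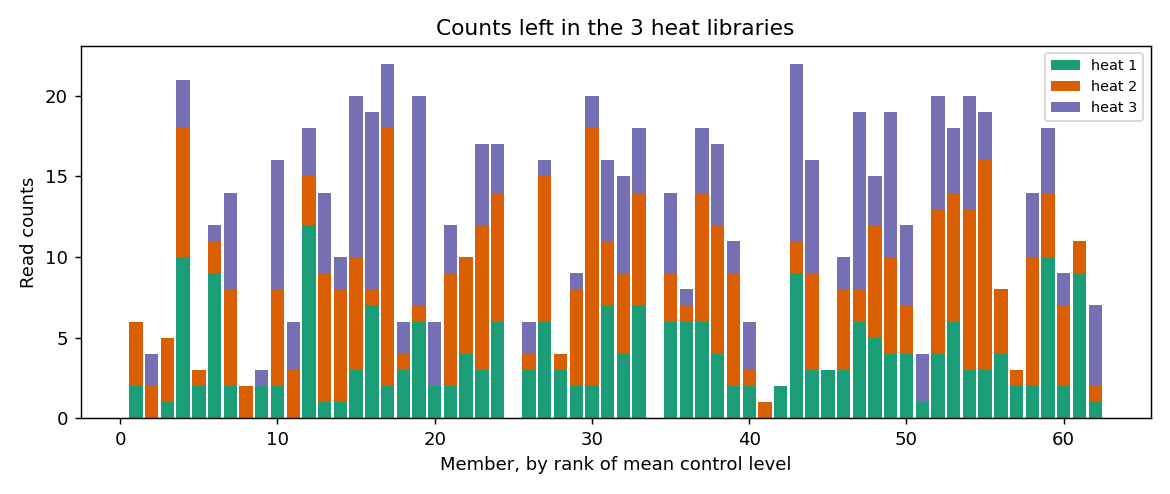
Read counts left in heat libraries 1, 2 and 3, stacked for each of the 62 genes ordered by mean control level. The stacks reach 22 reads at most, are empty for ranks 25 and 34, and hold 6 and 4 reads for the 2 most abundant genes.

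The members without any heat read were both of moderate control level. Rank 25 had 189, 78 and 433 counts in control, which is 29.5 ± 19.6 CPM (SD, n = 3). With an upper limit of 3 counts over all heat libraries (0.133 CPM) for an unseen transcript, it was at least 222-fold lower in heat. That limit was 142-fold without control library 3, and between 146-fold and 151-fold without any one of the heat libraries, where fewer reads set the floor. Rank 34 had 155, 210 and 112 counts in control, which is 22.2 ± 9.72 CPM (SD, n = 3), and was at least 167-fold lower. Without any one of the heat libraries this limit lay between 110-fold (109.9) and 114-fold. Both limits take the control mean as exact and cover counting error only.

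Of the 7 members with 1 to 3 heat reads, 3 were abundant in control (ranks 5, 8 and 9) and 4 were not. Rank 41 had 127, 118 and 199 counts in control and 0, 1 and 0 in heat. Rank 42 had 92, 83 and 272 counts in control and 2, 0 and 0 in heat. Rank 45 had 163, 103 and 141 counts in control and 3, 0 and 0 in heat, and rank 57 had 125, 84 and 110 in control and 2, 1 and 0 in heat. At this depth these genes cannot be told apart from those without a read: the ratio for rank 41, 445-fold, has a Poisson interval of 79.9 to 17588.

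Members varied more between control libraries than expressed genes in general. The coefficient of variation over the 3 control libraries (the SD divided by the mean) had a median of 33.3% in the members and 16.6% in the 11365 expressed genes. It exceeded the upper quartile of the expressed genes, 24.3%, in 39 of 62 members. The difference was least in the lowest class of control level, with medians of 20.4% in 23 members and 16.3% in 1898 other genes from 10 to 20 CPM. From 20 to 50 CPM the medians were 42.4% in 24 members and 16.8% in 4648 others, and from 100 CPM they were 29.2% in 9 members and 16.4% in 2028 others. The extremes were wide: 15 members had a coefficient above 50% and 8 below 10%. Rank 11 had 1165, 375 and 108 counts in control and the highest coefficient, 97.7%, whereas rank 56 had 108, 97 and 128 counts and the lowest, 1.16%.

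Control library 2 was most often the low one. It was the lowest control for 33 of 62 members (53.2%), against 21.4% of the expressed genes, and the highest for 13 members (21.0%), against 56.5%. The median ratio of control library 2 to the mean of the other controls was 0.699 in the members and 1.13 in the expressed genes. The rule asks for at least 10 CPM in control library 2 as in the others and does not rank the controls. Its control limit acts on these same control values, so the order is not separate from the choice. The cause of the order was not tested. With totals scaled by TMM factors (trimmed mean of M-values), a setting added after the data were seen, control library 2 was lowest for 44 members (71.0%) and for 40.8% of expressed genes. The most frequent order was library 3 highest and library 2 lowest, found in 24 members (38.7%) and in 14.6% of the expressed genes. Among the 9 members from 100 CPM, 7 were lowest in control library 2. No test was made of this difference, since there is 1 such library.

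**Figure D4:**
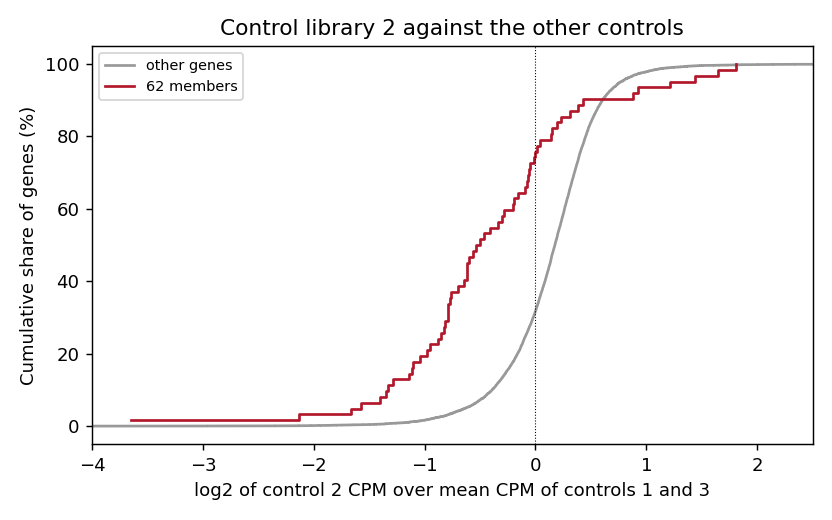
Cumulative share of genes (%) against the log2 ratio of CPM in control library 2 to the mean of control libraries 1 and 3, for the 62 members (red) and the other genes with at least 10 CPM in each control library (grey). The median is -0.52 for the members, and 75.8% of them lie below 0, against 31.99% of the 11365 expressed genes.

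A few members had the opposite order. In 6 members control library 2 exceeded both other controls by more than 1.5-fold in CPM, and in all 6 control library 3 was the lowest. These were chosen after their values were seen. Rank 18 had the clearest such pattern, with 162, 484 and 175 counts, or 22.1, 74.8 and 20.5 CPM, and 3, 1 and 2 reads in heat. Rank 12 had 419, 883 and 257 counts in control and 12, 3 and 3 reads in heat. Rank 24 had 181, 316 and 150 counts in control, and rank 31 had 137, 279 and 113. Rank 34, one of the genes without a heat read, and rank 55, near the limit of the rule with 94, 139 and 90 counts, completed the group.

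The number of members depended on control library 2 more than on any other single library. Applied without it, the rule gave 97 genes, the 62 members among them, against 75 without control library 1, 76 without control library 3 and 62 to 80 without a single heat library. Of the 62 members, 56 or 57 met the rule without any one of the heat libraries. With TMM-scaled totals as the denominator of CPM it gave 55 genes, all of them members.

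Whether the pattern held in libraries that had no part in the choice was examined by choosing genes on 4 libraries and reading their levels in the left-out control and heat library of the same number. Without libraries 1, 81 genes were chosen, of which 69 had at least 10 CPM in control library 1, 58 were below 1 CPM in heat library 1 and 50 met both limits. Without libraries 3, 77 genes were chosen, of which 62 met the control limit, 59 the heat limit and 49 both. Without libraries 2, 124 genes were chosen, of which 80 met the control limit, 65 the heat limit and 43 both. The share that met both limits was thus 61.7%, 63.6% and 34.7% for the pairs numbered 1, 3 and 2. The labels do not pair these libraries and do not give the plant of each. A left-out library may therefore be a technical repeat of those that chose the genes.

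In the left-out heat library the chosen genes had medians of 0.551, 0.925 and 0.515 CPM for pairs 1, 2 and 3, and 77, 97 and 71 of them were below 2 CPM. All genes that met the control limit of the same choice had medians of 33.8, 37.3 and 32.7 CPM in those heat libraries, and 0.960%, 0.862% and 1.19% of them were below 1 CPM. The highest left-out heat value was 17.1 CPM, in heat library 2. In control library 2 the chosen genes stood at a median of 0.615 of their level in the other controls, against 1.12 for all genes that met the control limit. The like ratios were 0.892 and 0.921 in control library 1, and 1.11 and 0.924 in control library 3. These medians are descriptions over genes that share libraries.

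**Figure D5:**
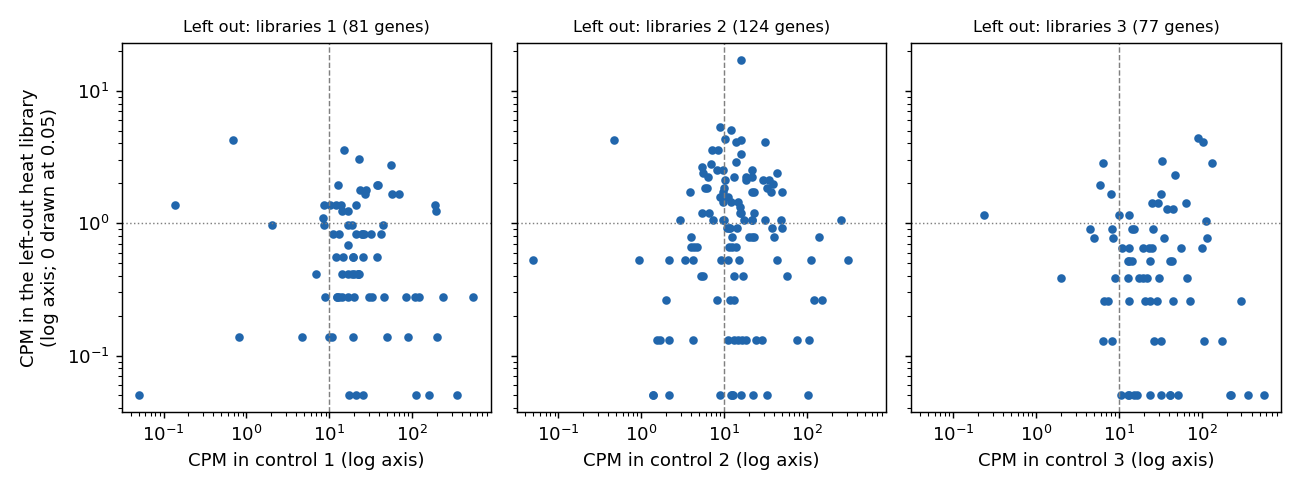
CPM in the left-out heat library against CPM in the left-out control library (both log axes) for genes chosen on the other 4 libraries, in 3 panels for the pairs numbered 1, 2 and 3; the lines mark 10 CPM and 1 CPM. Genes in the lower right of each panel, 50 of 81, 43 of 124 and 49 of 77, met both limits in libraries that did not choose them.

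The limits of the rule cut through a continuous range. The members with the highest heat means stood at 0.974, 0.969 and 0.941 CPM (ranks 43, 17 and 4), and the expressed genes just outside stood at 1.01, 1.02 and 1.03 CPM. A further 93 expressed genes had heat means from 1 to 2 CPM. On the control side, the lowest control values inside were 10.1 CPM (rank 53) and 10.6 CPM (ranks 55 and 61), and the genes just outside had 9.80, 9.74 and 9.59 CPM in their lowest control library. A heat mean below 1 CPM with a control mean of at least 10 CPM, but at least 1 control library below 10 CPM, was found in 66 further genes. Of these, 39 were below 10 CPM in control library 2, 22 in control library 1 and 17 in control library 3.

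Position in the numbering of identifiers, which the rule did not use, was shared by a few members. The identifiers carry a block number and a running number, and nothing in the files states that they are positions in a genome. The 62 members fell in 21 of the 494 blocks of the table. Block 2 held 7 members among 869 expressed genes, block 5 held 6 among 795, block 1 held 5 among 1324 and block 4 held 5 among 645. These are among the larger blocks of the table. There were 4 pairs of members in the same block with running numbers at most 50 apart, holding 8 members. These were ranks 1 and 2, ranks 3 and 25, ranks 38 and 61, and ranks 22 and 62. No like count for other expressed genes is given, so nothing is read from the number of pairs. The order of the controls was the same within 1 of the 4 pairs, ranks 3 and 25, with library 3 highest and library 2 lowest. It differed within the other 3, among them ranks 38 and 61, which like ranks 3 and 25 had directly successive identifiers.

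Genes listed next to members were also examined. There were 114 non-member genes directly before or after a member in the numbering and at most 50 numbers away. Of the 73 tested, 30 were called lower (41.1%), 13 higher and 30 neither (edgeR, adjusted p below 0.05), against 28.7% lower and 28.1% higher over all tested genes. Their median fitted log2 change was -0.44, against -0.04 over all. Of the 48 neighbours that met the control limit of the rule, 3 (6.25%) had heat means of 10% of control or less, beside 3.22% of all 11365 expressed genes. The gene listed just before the 2 most abundant members had 34, 120 and 187 counts in the control libraries and 1, 0 and 0 in heat, and missed the rule through control library 1 alone. The gene listed just after rank 13 had 1716, 1076 and 1786 counts in control and 9, 53 and 15 in heat. Rank 13 itself had 645, 203 and 848 counts in control and 1, 8 and 5 in heat. Heat library 2 was the highest heat library in both, as it was for 28 of the 62 members.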

How the data were processed

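RNA-seq read counts of 3 control and 3 heat leaf libraries were deposited as 1 table of whole-number counts per gene, neither scaled nor pooled. CASAVA 1.8, HTSeq 0.6.1 and TopHat2 2.0.12 were used by the authors, in roles not stated, per the submitters' processing notes. Not given in the sources used here are the genome build, the annotation, the strand setting and the counting of multiply matching reads. Groups and replicate numbers come from sample titles.

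CPM was computed here on column totals. The members, lists and tests were chosen with earlier results of these data known. Counts were tested on the whole table with edgeR 4.0.16 in R 4.3.3 (filterByExpr, TMM factors of 0.899 to 1.17, robust quasi-likelihood fit with group as the only term, Benjamini-Hochberg adjustment, threshold 0.05). Standard errors of log2 changes are the change divided by the square root of its F statistic. Fold ratios use means of CPM, and the Poisson intervals treat the control mean as exact. Against TMM, the median log2 change over all tested genes shifted by -0.17 with library totals and by -0.11 with upper quartile scaling. The test and the rule were tested on simulated data. The named genes are the 2 members with the highest mean control CPM. The gene name patterns and cell type markers that had been listed could not be applied, because no identifier matched a name. Alternatives included DESeq2 1.42.0 and limma 3.58.1 (voom). No sequences are shown.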

Additional observations from a re-analysis of the deposited data

How the results depend on the processing

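The number of genes found by the rule followed its limits. It was 149 with a control minimum of 5 CPM and 22 with 20 CPM, 128 when only the control mean had to reach 10 CPM, 28 with a heat mean below 0.5 CPM, 155 below 2 CPM, and 37 when every heat library had to be below 1 CPM. Other denominators of CPM and thinning to the smallest library gave 55 to 64. With 1 library left out it ranged from 62 to 97, the highest without control replicate 2, and with a same-numbered pair left out from 77 to 124, the highest without the libraries numbered 2. The number of members without a heat read was 2 to 4 with 1 heat library left out, and 4 without heat library 1 or without heat library 2. The 62 members were called lower in each of the 14 alternative fits, and their median log2 change lay between -5.80 and -5.34. The members were chosen on this contrast, so these calls do not show robustness. With the replicate block 62 members and 4878 of all genes were called lower, against 5018 without it. The labels do not say that replicate numbers pair libraries, so the libraries were not treated as paired. The deviations of same-numbered libraries correlated at 0.0487, 0.0998 and 0.178, and libraries of different numbers were not compared. Summed levels of the members moved by less than 1 SD in each alternative. Depth limits the heat values, which rest on at most 22 reads a gene.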

Other observations

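The position of control library 2 among the controls was graded over the expressed genes by their heat call. Its median ratio to the mean of the other controls was 0.699 in the 62 members, 1.003 in the 3818 other genes called lower, 1.15 in the 4458 genes not called and 1.23 in the 3027 genes called higher. It was the lowest control for 53.2%, 36.0%, 16.5% and 9.58% of these genes. The ratios used column totals, whereas the calls used TMM factors. With TMM-scaled totals the median ratio was 0.601 in the members and 0.969 in the 11365 expressed genes. It was not computed by call with that scaling. The calls use the same control libraries as the ratio, so the values are a description, and their cause was not tested. The spread between controls was not graded in this way, with median coefficients of variation of 33.3% in the members, 16.2% in the other genes called lower, 16.7% in those not called and 16.8% in those called higher.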
